A study of Mus musculus with 64 samples.

Results

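The nuclear genes for subunits of respiratory complexes III, IV and V were followed through 64 bulk RNA libraries from mouse liver, white adipose tissue (WAT), heart and skeletal muscle. Members were the genes whose symbols begin with Uqcr, with Cox4 to Cox8, or with Atp5, and whose mean level over the 16 libraries of a tissue reached 1 TPM, the deposited level that is corrected for transcript length and for library size. Of 19521 genes in the table, 42 had such a symbol: 8 for complex III, 17 for complex IV and 17 for complex V. The level was met in at least 1 tissue by 41 of them, and the members numbered 38 in liver, 40 in WAT, 41 in heart and 41 in muscle. Cox7b2 was under the level in every tissue. The other matched genes below it were Cox6a2, Cox4i2 and Cox6b2 in liver and Cox6a2 in WAT. Cyc1, the cytochrome c1 subunit of complex III, has a symbol of another form and was not counted.

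The libraries came from male C57BL/6J mice, either wild type (called CTRL here) or labelled Pklr-/- (called labelled KO). From the age of 8 weeks the mice stayed on chow or were given a high-sucrose diet (HSD) for 8 weeks, and tissues were taken at 16 weeks. Each tissue therefore had 4 groups of 4 libraries: CTRL on chow, CTRL on HSD, labelled KO on chow and labelled KO on HSD. The labels describe separate mice, 4 to a group, and the replicate numbers used here only name libraries. They describe 16 mice for the 64 libraries, so libraries of different tissues share mice, but no label says which do, and the tests between tissues treat the libraries as separate. Pklr encodes the liver and red cell pyruvate kinase, and its level was read first as a check of the labels. In liver on chow Pklr was at 212 ± 55.2 TPM in labelled KO and 113 ± 37.1 in CTRL (SD, n = 4 each), and on HSD 405 ± 63.4 against 213 ± 44.8 (SD, n = 4 each). Neither difference was called (edgeR adjusted p = 0.196 and 0.220). On either diet all 4 libraries labelled KO were above all 4 CTRL libraries, at 147 to 268 against 61.6 to 141 TPM on chow and 314 to 459 against 154 to 263 on HSD. The deposited gene total thus goes against the labels, whether the genotype labels are exchanged was not tested, and no direction below is read as an effect of losing the enzyme.

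Estimated counts summed to between 5724366 and 12188623 per library. Mitochondrially encoded genes held between 6.2 and 10.6% of a liver library, between 6.4 and 11.1% of a WAT library, between 25.2 and 31.0% of a muscle library and between 36.4 and 48.5% of a heart library. Each tissue held its defining markers: summed over 5 genes a list, hepatocyte markers were at 32568 TPM or more in liver, white adipocyte markers at 11271 or more in WAT, cardiomyocyte markers at 7058 or more in heart and skeletal muscle markers at 25863 or more in muscle. Among the muscle libraries, labelled KO chow replicate 2 held 775 TPM of cardiomyocyte markers, against 9.77 to 22.6 in the others. In 4 libraries the counts tilted with transcript length by more than 0.1 log2 units per doubling of length: WAT CTRL chow replicates 2 (0.17) and 4 (0.11), liver CTRL HSD replicate 3 (0.15) and muscle CTRL chow replicate 1 (-0.16). This bears on the members, whose median transcript length was 620 bases against 2084 over all genes.

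Complexes III and IV pass electrons from ubiquinol through cytochrome c to oxygen and pump protons across the inner mitochondrial membrane. Complex V, the ATP synthase, lets the protons return and makes ATP. A few subunits of each are encoded in the mitochondrial genome, and the rest are nuclear genes whose products are imported. Several complex IV subunits exist as a widely expressed form and a form of contractile tissue: in the mouse the pairs are Cox6a1 and Cox6a2, Cox7a2 and Cox7a1, and Cox8a and Cox8b. The tissues used here set these forms side by side.

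Promoters of the isoform pairs are printed because the pairs diverged most between tissues. RefSeq sequences of build GRCm38.p6, from 250 bases before to 50 after each start, were used for 31 of the 41 members, in 34 promoters. They were selected by symbol and by a filter given below. Cox6a1, Cox7a2, Cox8a, Cox7a1 and Cox8b are shown, each as 280 bases ending 30 bases after its start. Cox6a2 had no matched entry, so its pair is shown by Cox6a1 alone. Capitals mark NRF1 (GCGCATGCG), ETS (CCGGAAG), YY1 (AAGATGGCG), ERR (AAGGTCA), MEF2 and TATA box (TATAAA) letters on either strand.
Cox6a1, chr5:115348929-115349208, minus strand: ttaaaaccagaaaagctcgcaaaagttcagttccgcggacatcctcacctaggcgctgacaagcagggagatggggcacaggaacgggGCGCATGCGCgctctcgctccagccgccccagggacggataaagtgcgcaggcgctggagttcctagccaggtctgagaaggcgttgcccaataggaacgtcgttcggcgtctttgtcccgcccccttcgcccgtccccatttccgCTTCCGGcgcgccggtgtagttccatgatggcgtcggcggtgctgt
Cox7a2, chr9:79759824-79760103, minus strand: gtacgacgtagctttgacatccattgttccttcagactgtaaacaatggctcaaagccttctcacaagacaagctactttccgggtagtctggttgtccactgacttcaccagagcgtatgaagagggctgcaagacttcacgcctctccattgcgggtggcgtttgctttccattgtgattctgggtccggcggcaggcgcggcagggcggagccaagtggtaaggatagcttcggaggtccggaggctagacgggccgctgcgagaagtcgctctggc
Cox8a, chr19:7217587-7217866, minus strand: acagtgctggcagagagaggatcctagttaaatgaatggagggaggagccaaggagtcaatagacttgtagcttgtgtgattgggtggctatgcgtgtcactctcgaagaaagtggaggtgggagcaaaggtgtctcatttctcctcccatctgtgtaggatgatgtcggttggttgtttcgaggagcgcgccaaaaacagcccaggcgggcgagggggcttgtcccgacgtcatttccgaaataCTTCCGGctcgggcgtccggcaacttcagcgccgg
Cox7a1, chr7:30183921-30184200, plus strand: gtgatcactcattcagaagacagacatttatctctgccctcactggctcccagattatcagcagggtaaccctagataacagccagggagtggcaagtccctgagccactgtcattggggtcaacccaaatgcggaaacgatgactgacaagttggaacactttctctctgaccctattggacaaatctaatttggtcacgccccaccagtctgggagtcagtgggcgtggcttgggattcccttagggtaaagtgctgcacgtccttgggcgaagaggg
Cox8b, chr7:140900417-140900696, minus strand: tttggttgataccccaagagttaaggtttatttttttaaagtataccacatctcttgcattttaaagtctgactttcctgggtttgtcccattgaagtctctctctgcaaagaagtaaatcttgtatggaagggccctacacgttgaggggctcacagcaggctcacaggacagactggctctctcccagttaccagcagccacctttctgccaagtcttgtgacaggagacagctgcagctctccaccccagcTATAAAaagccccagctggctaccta

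The widely expressed Cox6a1 held 2 overlapping matches to the NRF1 letters, on opposite strands, and 1 ETS match. Cox8a held 2 ETS matches in the 300-base window, of which the printed run shows the first. Cox7a1 and Cox7a2 held none of these letters in the window, and Cox8b held a TATAAA run that begins at base 5 after the annotated start. Over all 34 member promoters, 6 (17.6%) held the NRF1 letters, against 1.75% of the 32851 promoters in the table. ETS letters stood in 11 (32.4%) against 8.86%, YY1 letters in 2 (5.88%) against 1.40%, ERR letters in 4 (11.8%) against 4.72%, MEF2 letters in 0 against 3.19%, and TATAAA in 3 (8.82%) against 13.6%. The E-box (CANNTG) stood in 67.7% against 72.3%, the GC box (GGGCGG) in 29.4% against 35.7% and CCAAT in 52.9% against 37.4%. Member promoters had a median of 18.5 CG pairs, against 7 over the table. The member set left out the chromosome that holds Atp5a1, so this member could not be counted. That filter was not applied to the 32851 promoters, and its part in the percentages was not tested. These are letter matches only, and no binding was measured.

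Heart and muscle held the highest levels of most members. The summed level of members was 33464 TPM in heart (27213 to 36842), 37229 in muscle (32511 to 45284), 16167 in WAT (11668 to 17832) and 11074 in liver (9123 to 12711), each the mean and range of 16 libraries. No liver or WAT library reached the lowest heart or muscle library. The nuclear subunits of complex V summed to 17044 ± 1005 TPM in heart, those of complex IV to 11391 ± 1361 and those of complex III to 5029 ± 474 (SD, n = 16 each). In liver the same sums were 5816 ± 605, 3197 ± 397 and 2061 ± 246 (SD, n = 16 each).

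**Figure D1:**
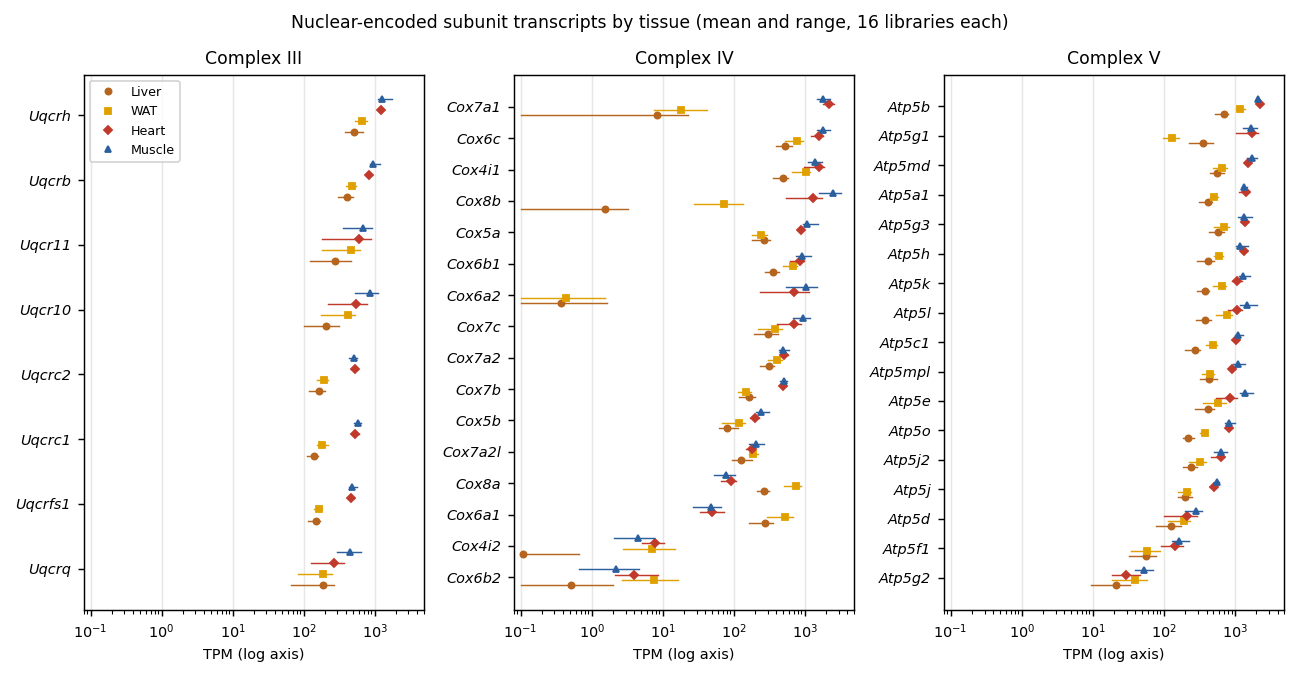
Mean TPM of each member (log axis) in liver, WAT, heart and muscle, with a line from the lowest to the highest of 16 libraries and values under 0.1 drawn at 0.1. Most members are highest in heart and muscle, while Cox6a2, Cox7a1 and Cox8b span several powers of 10 and Cox6a1 and Cox8a are lowest in heart and muscle.

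Atp5b, the catalytic beta subunit of the ATP synthase, was the highest member in liver (704 ± 72.4 TPM), WAT (1199 ± 113) and heart (2286 ± 81.0) (SD, n = 16 each). In muscle it stood at 2119 ± 78.0 TPM and only Cox8b was higher, at 2515 ± 449 (SD, n = 16 each). The lowest members were Cox8b in liver (1.54 ± 1.22 TPM), Cox4i2 in WAT (7.14 ± 3.35), and Cox6b2 in heart (3.96 ± 1.93) and muscle (2.19 ± 1.18) (SD, n = 16 each). Over the 38 genes that were members in all 4 tissues, the order of mean levels had a Spearman rho of 0.96 between heart and muscle, 0.87 between liver and WAT, and 0.42 between WAT and muscle. These correlations are across genes, which share libraries and are not replicates, and are given as description.

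Mitochondrially encoded transcripts of the same complexes were far higher than the nuclear ones. For complex IV, mt-Co1 to mt-Co3 summed to 21.3 ± 4.09 times the nuclear members in heart, 19.96 ± 2.65 in liver, 13.4 ± 1.88 in muscle and 12.4 ± 1.93 in WAT (SD, n = 16 each). For complex V the ratio was 6.91 ± 0.782 in liver, 6.68 ± 0.725 in heart, 5.53 ± 0.776 in WAT and 4.75 ± 0.709 in muscle (SD, n = 16 each). Its muscle values ran from 2.51 to 5.42, the lowest in CTRL chow replicate 1. In that library the mitochondrially encoded genes of complex V summed to 55257 TPM, where the muscle median was 87738. For complex IV, heart libraries ran from 17.0 to 32.9 and muscle libraries from 9.74 to 17.7, with little overlap, while liver, with the lowest nuclear sum, ran from 16.6 to 25.9. Whether mitochondrial RNA was captured equally in all libraries was not tested.

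Among the departures from a common tissue order were the complex IV isoform pairs. Cox6a, Cox7a and Cox8 are small accessory subunits at the edge of the complex. Cox6a2 was at 705 TPM in heart (232 to 1142) and 1051 in muscle (548 to 1514), and at 0.37 in liver (highest library 1.66) and 0.43 in WAT, far below the lowest heart library. Its partner Cox6a1 went the other way, at 277 TPM in liver, 533 in WAT, 50.2 in heart and 47.8 in muscle. Cox6a2 therefore made up 92.7 ± 2.09% of the summed COX6A level in heart and 95.5 ± 0.784% in muscle, against 0.138 ± 0.205% in liver and 0.0934 ± 0.137% in WAT (SD, n = 16 each).

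Cox8b and Cox8a showed the same exchange, with an exception in WAT. Cox8b was at 1327 TPM in heart (542 to 1730) and 2515 in muscle (1588 to 3235), and at 1.54 in liver (0 to 3.27). In WAT it was at 74.1 TPM (27.8 to 134), and no WAT library overlapped with a library of another tissue. Its share of the COX8 level was 97.0 ± 0.430% in muscle, 93.3 ± 1.51% in heart, 8.67 ± 2.74% in WAT and 0.565 ± 0.440% in liver (SD, n = 16 each). Cox8a was highest in WAT, at 757 TPM, followed by liver at 270, heart at 91.1 and muscle at 78.0.

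The COX7A pair differed from both: the widely expressed form was not lower in heart and muscle. Cox7a2 stood at 507 TPM in heart and 493 in muscle, against 313 in liver and 409 in WAT. Cox7a1 was added to it at 2207 TPM in heart (1829 to 2559) and 1818 in muscle (1500 to 2272), against 8.35 in liver (0 to 23.0) and 17.99 in WAT (7.66 to 42.2). Cox7a1 was 81.3 ± 1.05% of the pair in heart and 78.6 ± 1.01% in muscle (SD, n = 16 each). Cox7a2l, a related gene, ran from 127 TPM in liver to 206 in muscle.

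**Figure D2:**
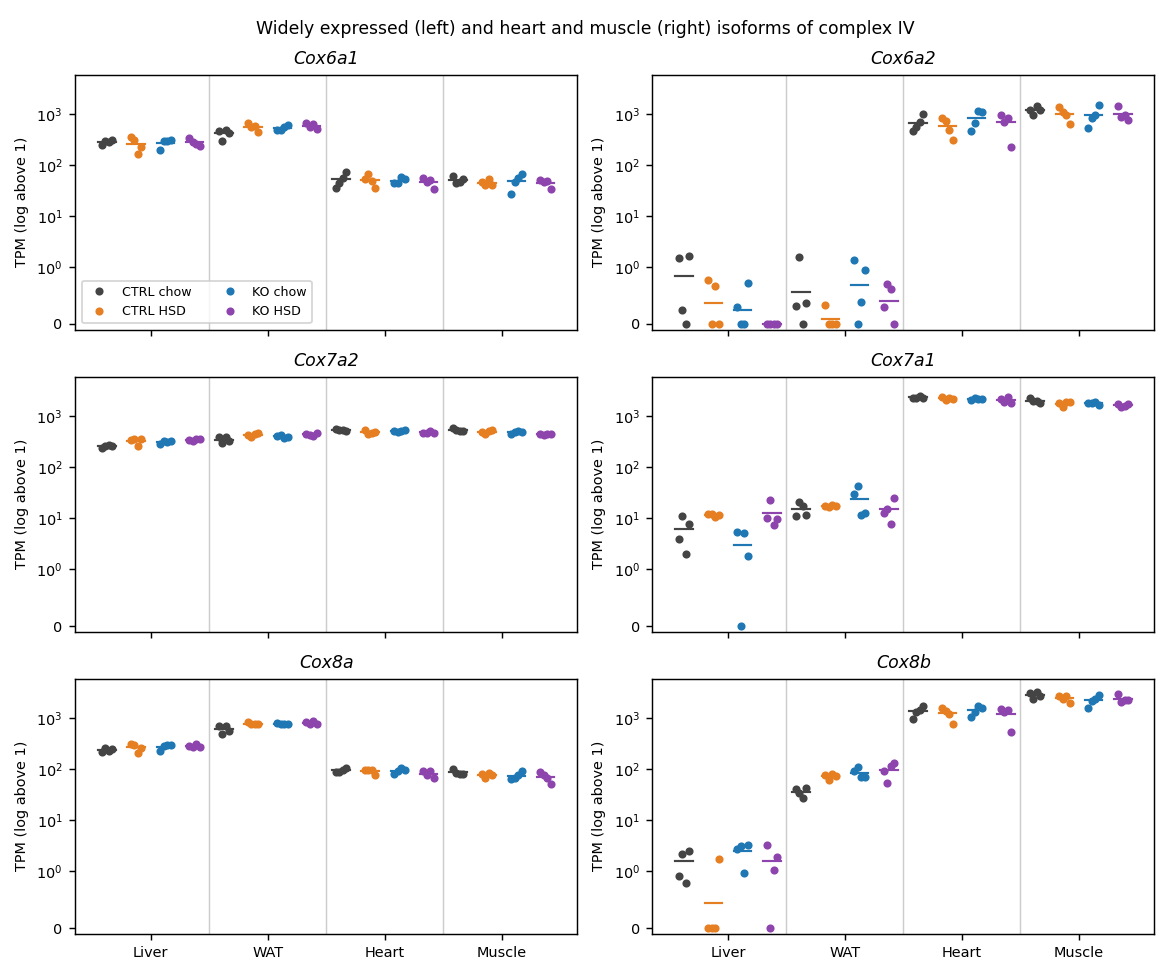
TPM of each library (points, linear from 0 to 1 and log above) with group means (bars) for the 4 groups of each tissue. Cox6a1 and Cox8a are lower in heart and muscle than in liver and WAT, Cox7a2 is not, and Cox8b is at an intermediate level in WAT, where CTRL chow is the lowest group.

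The other isoform families leaned on 1 gene everywhere or shifted by degree. Cox4i2, an isoform known from lung and from low oxygen, was 0.683 ± 0.318% of the COX4 level in WAT, 0.505 ± 0.101% in heart, 0.327 ± 0.0932% in muscle and 0.0206 ± 0.0357% in liver (SD, n = 16 each). Cox6b2, known as the testis form, was 1.11 ± 0.539% of COX6B in WAT, 0.459 ± 0.216% in heart, 0.235 ± 0.120% in muscle and 0.153 ± 0.204% in liver (SD, n = 16 each). The c subunit of the ATP synthase rotor is made from 3 genes with the same mature product. Atp5g1 gave 55.0 ± 4.15% of that family in heart and 54.2 ± 2.10% in muscle, 36.7 ± 3.99% in liver and 14.7 ± 1.33% in WAT (SD, n = 16 each). Atp5g3 took most of the rest, with 80.8 ± 2.22% in WAT (SD, n = 16), and Atp5g2 did not exceed 6.46% in any library.

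Tests between tissues used edgeR's quasi-likelihood test on 32 libraries with TMM normalization, which assumes that most genes do not differ, and Benjamini-Hochberg adjustment over all genes tested, with calls at 0.05. All 38 genes that were members in both heart and liver were called, 36 higher in heart and 2 lower, with a median log2 difference of 1.46. Over all genes 86.7% were called, 43.7% as higher and 42.9% as lower, and the median was 0.01. The 2 lower genes were Cox6a1 (-2.45 ± 0.11 SE, adjusted p = 2.0e-19) and Cox8a (-1.54 ± 0.05 SE, adjusted p = 2.9e-22). Among the higher ones were Cox7a1 (8.24 ± 0.14 SE, adjusted p = 8.2e-31) and Atp5g1 (2.26 ± 0.09 SE, adjusted p = 2.8e-20).

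Heart and muscle differed in single subunits in both directions. Of 41 members, 20 were called higher in heart and 8 lower, where 75.2% of all genes were called (38.6% higher, 36.6% lower), so the share of members called was near that of all genes. Cox7a1 (0.49 ± 0.05 SE, adjusted p = 2.9e-10) and the ATP synthase genes Atp5b (0.33 ± 0.03 SE, adjusted p = 3.7e-10) and Atp5h (0.44 ± 0.05 SE, adjusted p = 8.4e-10) were higher in heart. Cox8b (-0.71 ± 0.11 SE, adjusted p = 2.0e-06), Cox6a2 (-0.38 ± 0.17 SE, adjusted p = 0.0498) and Atp5e, the epsilon subunit of the F1 head (-0.50 ± 0.06 SE, adjusted p = 8.7e-09), were higher in muscle. Atp5e ran from 552 to 1092 TPM in heart and from 1177 to 1803 in muscle, without overlap. Of the contractile forms, Cox7a1 was thus higher in heart and Cox8b in muscle. The call of Cox6a2 was marginal: it held in 13 of 32 fits that each left out 1 library, with an edgeR adjusted p of up to 0.0987, and under 6 of 9 other settings. Tested on log2(TPM + 1) values with limma, where the median of all genes was itself -0.13, 7 members were called higher in heart and 21 lower. Cox7a1, Atp5b and Atp5h stayed higher there, Cox8b, Cox6a2 and Atp5e were lower there too, and 7 other members called higher in heart changed sign.

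Between WAT and liver the direction depended on the scale. On TMM-scaled counts 34 of 38 shared members were called lower in WAT and 2 higher (Cox8a and Cox8b), with a median of -0.80, where 86.2% of all genes were called, 39.9% as lower and 46.3% as higher, and the median was 0.12. On log2(TPM + 1) values in limma, 31 were called higher in WAT and 3 lower, with a median of 0.49, but there the median of all genes was 1.003. Relative to the median gene the members were therefore lower in WAT on both scales, while their TPM was higher. Atp5g1 was lower in WAT by either measure, at 130 TPM (96.1 to 163) against 355 in liver (225 to 494), without overlap.

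Libraries differed far more in some members than in others, and the same members varied in heart and muscle. In heart, Cox6a2 ran from 232 to 1142 TPM, a 4.93-fold range, and Uqcr11, a small accessory subunit of complex III, from 183 to 876. Cox7a1 in the same libraries ran from 1829 to 2559, a 1.40-fold range. The SD of log2(TPM + 1) within groups was 0.69 for Cox6a2, 0.69 for Uqcr11, 0.55 for Uqcr10 and 0.48 for Cox8b in heart, against 0.11 for Cox7a1. In muscle it was 0.44 for Cox6a2, 0.39 for Uqcr11 and 0.12 for Cox7a1. The spread of Uqcr11 and Uqcr10 was not limited to these tissues: their SD was 0.56 and 0.46 in liver and 0.40 and 0.34 in WAT.

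Several of the variable transcripts moved together from library to library in heart and muscle. Within heart groups, Cox6a2 correlated with Cox8b at r = 0.97 and with Uqcr11 at 0.99 over 16 libraries, and with Cox7a1 at 0.40. In muscle the values were 0.91, 0.97 and -0.23. The genes most like Cox6a2 over the 16 heart libraries, among 5826 genes with a mean of at least 5 TPM, were Rplp1 (r = 0.99), Ndufa13 (0.99), Atp6v0c (0.99) and Rps29 (0.99), and in muscle Rplp1 (0.98) and Rps29 (0.98), which were picked after their values were seen and include 2 ribosomal protein genes. The 3 heart libraries with the lowest Cox6a2 were labelled KO HSD replicate 4 (232 TPM), CTRL HSD replicate 4 (319) and CTRL chow replicate 1 (460). They also had the 3 lowest slopes of counts on GC content, at -0.42, -0.25 and -0.19 log2 units per 10 percentage points of GC, where the other heart libraries had -0.09 to 0.17. In muscle the lowest Cox6a2, in labelled KO chow replicate 1 (548 TPM) and CTRL HSD replicate 4 (629), went with the 2 lowest slopes, -0.18 and -0.18. Across 38 members, the SD and the GC content of the transcript had a Pearson r of 0.41 in heart and 0.41 in muscle, a description across genes that share libraries. Transcript GC content was 52.8% for Cox6a2, 55.5% for Uqcr10, 55.8% for Cox8b and 58.9% for Uqcr11. Cox7a1, with its small spread, had 55.0%, which is above Cox6a2. The part of base composition in the spread between libraries was not tested.

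**Figure D3:**
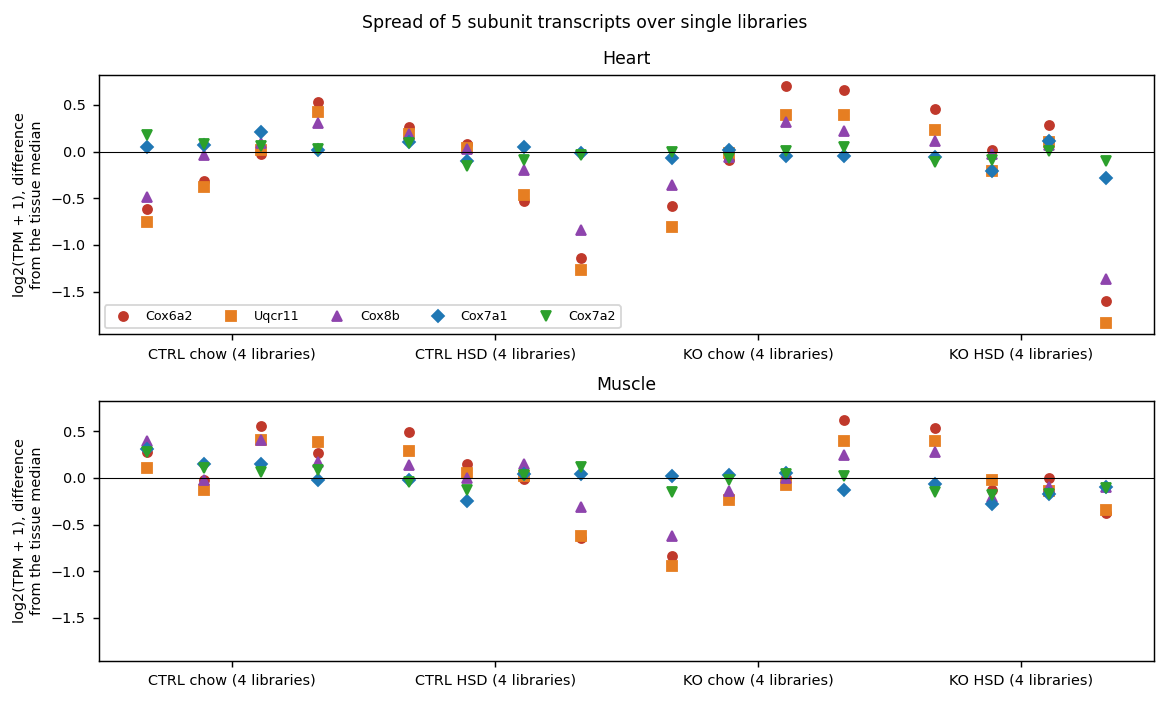
Log2(TPM + 1) of 5 members in each heart and muscle library, as the difference from the median of the tissue, ordered by group. Cox6a2, Uqcr11 and Cox8b rise and fall together, to below -1 in the lowest heart library, while Cox7a1 and Cox7a2 stay near 0.

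Genotype and diet were compared within each tissue over its 16 libraries, again with edgeR and adjustment over all genes. Shares of all genes called are those of the main edgeR fits, and counts from other fits are given without such a share. Members were called in WAT. In liver, heart and muscle none of the 37, 41 and 40 members measured passed in any contrast.

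In WAT of CTRL mice all 40 members had higher means on HSD than on chow, and 19 were called, all higher. The median log2 difference of members was 0.47 against -0.04 over all genes, of which 4.77% were called, 1.85% as higher and 2.92% as lower. By complex, 3 of 8 complex III members, 9 of 15 complex IV members and 7 of 17 complex V members were called. Summed over members, the CTRL chow libraries held 14487, 11668, 16178 and 13906 TPM and the CTRL HSD libraries 17832, 16978, 17272 and 16436. Every HSD library was above every chow library. In bulk tissue, fewer cells of a type and less RNA per cell cannot be told apart.

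Uqcrh, the hinge protein of complex III that contacts cytochrome c1, was at 616, 522, 633 and 560 TPM on chow and at 770, 751, 712 and 729 on HSD (log2 difference 0.53 ± 0.10 SE, adjusted p = 0.0130). All 4 HSD libraries were above all 4 chow libraries. Uqcrfs1, the Rieske iron-sulfur protein, was at 145, 141, 162 and 144 TPM on chow and 174, 177, 180 and 168 on HSD (0.41 ± 0.09 SE, adjusted p = 0.0243), also without overlap. Uqcrb, a small subunit, rose by 0.44 ± 0.10 SE (adjusted p = 0.0280). The core proteins Uqcrc1 and Uqcrc2 had differences of 0.19 and 0.34 and were not called.

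Of complex IV, Cox6c was at 703, 523, 754 and 637 TPM on chow and 950, 814, 881 and 812 on HSD (0.59 ± 0.12 SE, adjusted p = 0.0154). Cox6b1, which faces the intermembrane space, was at 572, 495, 621 and 586 on chow and 737, 697, 723 and 738 on HSD (0.53 ± 0.11 SE, adjusted p = 0.0174). In both genes the groups did not overlap. Cox4i1, Cox5a, Cox6a1, Cox7a2, Cox7c and Cox8a rose by 0.47 to 0.61, while Cox5b, Cox7b, Cox7a1, Cox7a2l, Cox4i2 and Cox6b2 were not called. Of complex V, the membrane-part subunits Atp5l (0.52 ± 0.11 SE, adjusted p = 0.0208), Atp5k (0.56 ± 0.13 SE, adjusted p = 0.0243), Atp5j2, Atp5mpl and Atp5md rose, with the stator subunit Atp5h and the rotor gene Atp5g3. The other 10 complex V members were not called: the F1 head genes Atp5a1, Atp5b, Atp5c1, Atp5d and Atp5e had differences of 0.25, 0.19, 0.32, 0.47 and 0.50, the stalk genes Atp5f1, Atp5j and Atp5o of 0.39, 0.36 and 0.30, and the rotor genes Atp5g1 and Atp5g2 of 0.34 and 0.63. Called and uncalled members thus stood side by side in the stalk and the rotor.

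Cox8b had the largest difference of the members. It was at 41.4, 34.1, 27.8 and 42.4 TPM in CTRL on chow and at 77.6, 63.0, 79.6 and 74.9 in CTRL on HSD (1.24 ± 0.28 SE, adjusted p = 0.0243). In labelled KO it was at 91.6, 113, 70.1 and 72.0 TPM on chow and 92.3, 53.8, 117 and 134 on HSD. All 12 libraries of the other groups were above the 4 CTRL chow libraries. Cox8b is also known as a marker of brown and beige fat, so the defining markers of those cells were set beside it. Ucp1 was at 0 in 13 of 16 WAT libraries and at most 0.20 TPM. Cidea was at 1.51 to 3.95 in CTRL on chow and 1.89 to 11.3 in CTRL on HSD, which overlap. In labelled KO, Cidea was at 2.2, 4.6, 3.6 and 2.9 TPM on chow and 8.2, 2.6, 9.6 and 19.8 on HSD. Ppargc1a went the other way on chow, at 1.1 to 1.77 TPM in CTRL and 0.71 to 1.04 in labelled KO, without overlap. Means in CTRL and labelled KO on chow were 2.08 and 3.52 TPM for Cpt1b, 0.02 and 0.27 for Elovl3, and 0.15 and 0.12 for Dio2. The 6 markers of the list summed to 6.24 to 7.24 TPM in CTRL on chow, 5.11 to 16.0 in CTRL on HSD, 5.18 to 10.9 in labelled KO on chow and 7.49 to 26.1 in labelled KO on HSD. Skeletal muscle, where Cox8b was highest, was checked by 5 markers. They summed to 24.8 to 85.8 TPM in CTRL on chow, 19.4 to 46.9 in CTRL on HSD and 43.6 to 144 in labelled KO on chow. CTRL on chow overlapped with CTRL on HSD and with labelled KO on chow. The sum in labelled KO on HSD is not given here. The part of brown and beige fat cells or of muscle cells in the Cox8b level was not tested. Cox7a1, at 15.3 ± 4.64 TPM and 17.2 ± 0.491 in CTRL on chow and HSD (SD, n = 4 each), was not called (0.34 ± 0.43 SE, adjusted p = 0.67).

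The count of members called in this comparison rested on single libraries. It was 16, 4, 30 and 2 without CTRL chow replicates 1 to 4, and 0, 9, 4 and 9 without CTRL HSD replicates 1 to 4, with the median between 0.42 and 0.61. It was 0 when the length-tilted chow replicates 2 and 4 were left out, where the median stayed at 0.33. With each library's length trend removed it was 5 (median 0.39). Length slopes were 0.02 to 0.17 in CTRL chow and -0.05 to 0.01 in CTRL HSD, without overlap. All 5 endothelial markers fell in the same comparison; they summed to 247 to 364 TPM on chow and 166 to 205 on HSD, without overlap. White adipocyte markers, of which 1 rose and 1 fell, summed to 11271 to 21940 TPM on chow and 21292 to 26099 on HSD. The part of length tilt and of cell makeup in the result was not tested.

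Other genes of the respiratory chain, taken from fixed lists, stood beside the members in the CTRL diet comparison. Of 37 complex I subunits 14 were called higher and none lower, with a median of 0.44. Of 4 complex II subunits 1 was called higher. Of the 6 mitochondrially encoded subunits of complexes III to V 1 was called higher, with a median of 0.37. None of the 13 measured regulators of mitochondrial genes was called, with a median of 0.00 against -0.04 over all genes, and assembly factors were called in 2 of 19 for complex IV and 0 of 6 for complex III.

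In labelled KO mice on HSD against chow, 37 of 40 members had higher means in WAT, with a median of 0.22, and none was called, where 6.38% of all genes were. By unadjusted p under 0.05 there were 14 of 40, against 3083 of 13255 genes, and DESeq2 called 4. The smallest p belonged to Uqcrc2, a core protein of complex III, at 190, 184, 192 and 153 TPM on chow and 204, 216, 209 and 224 on HSD, without overlap (0.38 ± 0.12 SE, adjusted p = 0.0582). Uqcrfs1, Atp5h and Cox6c followed, with differences of 0.28, 0.25 and 0.35. The difference between the 2 diet effects was not shown: none of the 40 members passed the interaction test, where 0.573% of all genes did. For Cox8b the interaction was -0.88 ± 0.39 SE (adjusted p = 0.24).

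In labelled KO against CTRL on chow, 39 of 40 members had higher means in WAT and 2 were called, Cox8b (1.35 ± 0.28 SE, adjusted p = 0.0103) and Cox6b1 (0.39 ± 0.11 SE, adjusted p = 0.0458). Of all genes 6.68% were called, 1.18% as higher and 5.50% as lower. Cox8b stayed called when any 1 of the 8 libraries was left out, and Cox6b1 in 2 of 8 cases. Neither passed without the length-tilted chow libraries, where Cox8b kept its size (1.39, adjusted p = 0.13). The next smallest p were those of Cox8a (0.40 ± 0.12 SE, adjusted p = 0.0608) and Atp5k (0.40 ± 0.13 SE, adjusted p = 0.0669). These comparisons share the CTRL chow libraries with the diet comparison. GC slopes were 0.06 to 0.27 in labelled KO chow and -0.35 to -0.02 in CTRL chow, without overlap, and with the GC trend removed Cox8b was still called (1.21, adjusted p = 0.0340) and Cox6b1 was not. Length slopes were -0.05 to -0.02 in labelled KO chow and 0.02 to 0.17 in CTRL chow, also without overlap, and with the length trend removed Cox8b was called (1.18, adjusted p = 0.0363) and Cox6b1 was not (0.23, adjusted p = 0.25). On HSD none was called between genotypes, where 0.106% of all genes were, and none had an unadjusted p under 0.05. For Cox8b the difference on HSD was 0.47 ± 0.27 SE (adjusted p = 0.55).

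**Figure D4:**
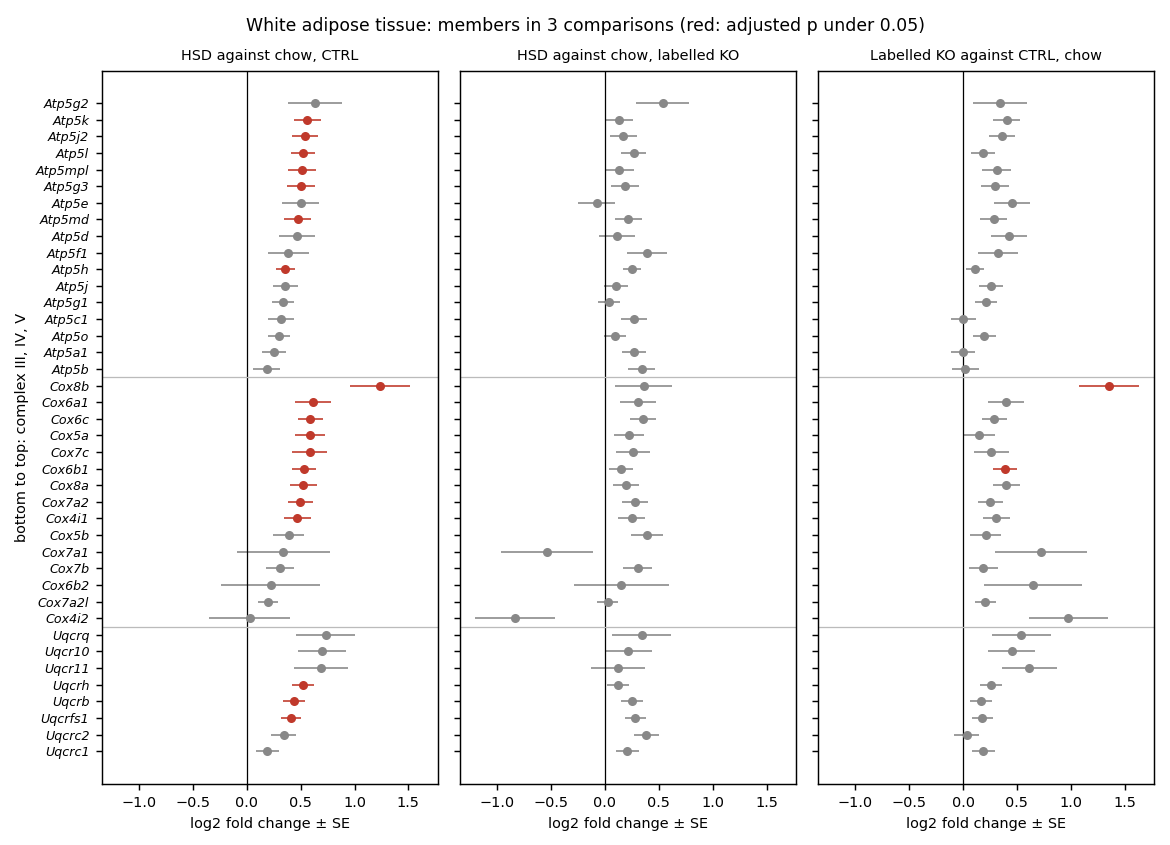
Log2 fold change (± SE) of 40 members in WAT for HSD against chow in CTRL, HSD against chow in labelled KO, and labelled KO against CTRL on chow, with members past the adjusted threshold in red. In the first panel all 40 points lie right of 0 and 19 are red, in the second none is, and in the third Cox8b and Cox6b1 are.

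In muscle the members had lower means on HSD, without a call. All 40 measured members had lower means on HSD than on chow in CTRL, with a median of -0.24 against 0.00 over all genes, and 26 had an unadjusted p under 0.05, against 1804 of 12092 genes. None passed adjustment, where 0.0910% of all genes did, and DESeq2 called 5. Cox6b1 had the smallest p (-0.33 ± 0.09 SE, adjusted p = 0.11), followed by Atp5g3, Cox6c and Cox4i1. The summed level was 45284, 38272, 40341 and 40026 TPM on chow and 37332, 35800, 38107 and 34752 on HSD, without overlap. Replicate 1 of the chow group was the highest and carried the length tilt given above. Without it the median was -0.15, still with all 40 lower. Length slopes were -0.16 to -0.0007 in the CTRL chow libraries and 0.007 to 0.04 in CTRL HSD, without overlap. The part of length tilt in the muscle differences was not tested.

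In labelled KO muscle on chow all 40 members were also lower than in CTRL on chow, with a median of -0.21, or -0.12 without the same CTRL library, where 39 of 40 were lower. None was called and 0% of all genes were. The smallest p belonged to Cox7c (-0.35 ± 0.11 SE, adjusted p = 0.34), and 16 members had an unadjusted p under 0.05, against 1364 of 12092 genes. The 2 comparisons share the CTRL chow libraries. Length slopes in labelled KO chow were 0.009 to 0.03, also without overlap with CTRL chow. On HSD against chow in labelled KO the median was -0.06, where 0.00827% of all genes were called, and between genotypes on HSD it was -0.03, where 0% were.

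The CTRL diet effect was more positive in WAT than in muscle for 29 of 40 members, in a test of the difference itself. Of all genes 6.45% were called, 3.67% as more positive in WAT and 2.78% as less positive. The effects pointed opposite ways, with member medians of 0.47 in WAT and -0.24 in muscle, where no member was called. The median difference was 0.76. It was 0.90 ± 0.15 SE for Cox6c (adjusted p = 0.00168), 0.88 ± 0.15 SE for Cox6b1 (adjusted p = 0.00168) and 1.59 ± 0.32 SE for Cox8b (adjusted p = 0.00470). Without the length-tilted libraries of both tissues 2 members were called and the median was 0.48. The tilts of the WAT and muscle chow libraries had opposite signs. Against liver and against heart no member passed (median 0.34 and 0.39), where 3.97% and 0.455% of all genes did. By unadjusted p under 0.05 there were 16 of 38 members against liver and 21 of 40 against heart, where 2986 of 13893 and 1900 of 13858 genes had one. These counts of 0 depended on the fit: DESeq2 called 6 and 5 members, limma on log2(TPM + 1) called 1 and 2, and 6 and 2 were called with the title number of the libraries as a replicate block. The shares of all genes given above belong to the main edgeR fit and not to these fits. Against liver, 8 were called without liver CTRL HSD replicate 1 and 5 without WAT CTRL chow replicate 3, and against heart 3 were called without that same WAT library.

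**Figure D5:**
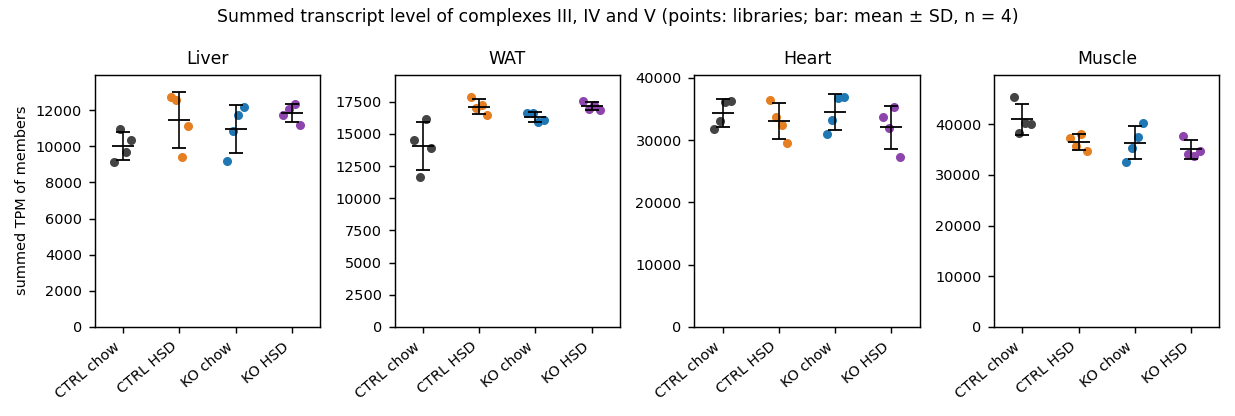
Summed TPM of all members in each library (points) with mean ± SD (n = 4) for the 4 groups of each tissue. In WAT the CTRL chow libraries, from 11668 to 16178, lie below all CTRL HSD libraries, and in muscle CTRL chow is the highest group, with 1 library at 45284.

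In liver of CTRL mice 23 of 37 members had higher means on HSD than on chow, with a median of 0.07 and no call, where 4.67% of all genes were called. By unadjusted p under 0.05 there were 4, against 2397 of 11259 genes, and DESeq2 called 1 and limma 5. The median ran from 0.0015 without CTRL HSD replicate 1 to 0.18 without CTRL HSD replicate 3, the length-tilted liver library; it was 0.0078 without CTRL chow replicate 1, 0.010 without CTRL HSD replicate 2 and 0.16 without CTRL chow replicate 4. Uqcrfs1 had the smallest p (0.26 ± 0.08 SE, adjusted p = 0.0698), at 121, 139, 116 and 123 TPM on chow and 158, 169, 159 and 162 on HSD, without overlap. In labelled KO against CTRL on chow 28 of 37 means were higher, with a median of 0.21 and no call, where 0% of all genes were called and DESeq2 called 3 members. By unadjusted p under 0.05 there were 12, against 1377 of 11259 genes. Uqcrc2 (0.42 ± 0.11 SE, adjusted p = 0.20) and Atp5c1, the gamma subunit that turns inside the F1 head (0.36 ± 0.10 SE, adjusted p = 0.20), came first. In the other liver contrasts no member passed either, where 0.0711% of all genes were called between genotypes on HSD, 0.00888% between diets in labelled KO and 0% in the interaction. Hepatocyte markers summed to 32568 to 71712 TPM in CTRL chow and 61874 to 76825 in labelled KO chow, with overlap, and to 79222 to 86357 in CTRL HSD; their part was not tested. Cox7a1 in labelled KO liver was at 5.32, 0, 5.08 and 1.83 TPM on chow and 10.3, 23.0, 7.29 and 9.76 on HSD, without overlap (1.79 ± 0.62 SE, adjusted p = 0.31). These rest on estimated counts of 0 to 7 on chow and 8 to 27 on HSD.

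No heart member was called by diet or genotype. Medians lay between -0.07 and 0.09 in the 5 contrasts, and by unadjusted p under 0.05 there were 0, 2, 1, 0 and 0 members for labelled KO against CTRL on chow, the same on HSD, HSD against chow in CTRL, the same in labelled KO, and the interaction. Over all 12134 genes tested the same counts were 447, 660, 747, 901 and 580. By adjusted p the shares of all genes called were 0%, 0.0412%, 0.0247%, 0.140% and 0.00824%. The smallest p was that of Cox6b2 between genotypes on HSD (-1.06 ± 0.37 SE, adjusted p = 0.69), at 2.37, 2.14, 3.65 and 2.69 TPM in labelled KO and 5.13, 8.48, 7.16 and 4.70 in CTRL, without overlap. Those are among the lowest levels of any member.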

How the data were processed

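RNA-seq of 64 mouse libraries was analysed, 4 in each of 16 groups of tissue, genotype and diet taken from the labels. The authors deposited estimated counts and TPM per gene, made with kallisto on build GRCm38 per the submitters' processing notes; the sources used here name neither its version nor any use of strand. Genes with near-identical copies or processed pseudogenes may have shared counts, and their levels are uncertain. Libraries of a group differed beyond sampling noise in all 96 pairs.

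Estimated counts were rounded and tested with edgeR 4.0.16 (R 4.3.3; filterByExpr with a minimum count of 10, TMM, robust quasi-likelihood F test, 2-sided) with 4 group means over the 16 libraries of a tissue, or over the 32 libraries of a pair of tissues. P-values were adjusted by Benjamini-Hochberg over all genes tested, with calls at 0.05, and cover the spread between libraries. SE is that of the log2 difference. Alternatives used DESeq2 1.42.0, limma 3.58.1 on log2(TPM + 1), no filter, length or GC trends removed, libraries left out, and the title number as a block. The GC alternative was chosen after seeing the data. Scripts were tested on simulated data.

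All members could be named; values were given for the isoform families, for up to 10 called members of a comparison by smallest p, for the smallest p where fewer than 4 passed, and for the highest and lowest levels. The members and lists were chosen with earlier results of these data known. Gene positions and promoters are from build GRCm38. Correlations between libraries are descriptions.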

Additional observations from a re-analysis of the deposited data

Results flagged for a closer look

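In groups of 4 libraries, 16 of 236 sets of values held a library set apart from the other 3 by a gap beyond Dixon's critical value for 4 samples. Chance gives about 1 in 20 such sets. In muscle, CTRL chow replicate 1 stood above its group in the summed level of complex V (21978.5 TPM, others 18944.0 to 19444.4), Cox7a2 (598.6, others 519.3 to 532), Cox8a (103.2, others 80.61 to 84.45) and Cox6b1 (1223.3, others 955.5 to 984.4). Labelled KO HSD replicate 1 of muscle was high in the complex IV sum (13844.2, others 11836.8 to 11921.5), and replicate 3 was low in Cox4i2 (3.493, others 4.303 to 4.359).

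In heart, labelled KO HSD replicate 4 was low in Cox8b (542.1 TPM, others 1364.3 to 1506.7), and CTRL HSD replicate 4 was low in Cox8a (76.03, others 96.44 to 97.81) and Atp5g1 (1315.7, others 1827.4 to 1901.1). In liver, labelled KO HSD replicate 4 was low in the complex IV sum (3083.1, others 3473.0 to 3540.5), CTRL HSD replicate 3 in Cox7a2 (266.7, others 349.3 to 365.3) and labelled KO chow replicate 1 in Atp5g3 (519.1, others 605.3 to 619.8). In WAT, CTRL HSD replicate 1 was high in Cox8a (856.4, others 764.4 to 773.9), labelled KO chow replicate 4 was high in Atp5g1 (154.7, others 123.9 to 127.5), labelled KO chow replicate 1 was low in Cox4i1 (1020.1, others 1089.5 to 1095.1) and CTRL chow replicate 2 was low in Cox4i1 (661.2, others 949.3 to 998.4).

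The CTRL diet effect differed between WAT and muscle for 29 of 40 members by the edgeR test of the difference itself, where 6.45% of all genes were called. Of these 29, 2 were still called without the length-tilted libraries, and the count ran from 19 to 34 when 1 library was left out, the lowest being without WAT CTRL chow replicate 2.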

How the results depend on the processing

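Counts of members called that are not listed here stayed within 1.5 times under the alternatives. Shares of all genes called are given for the main edgeR fit only, so the counts below have no such share beside them. With DESeq2 the count was 3 for labelled KO against CTRL on chow and 1 for CTRL diet in liver, 5 and 4 for labelled KO against CTRL on chow and for labelled KO diet in WAT, 5 for CTRL diet in muscle, and 6 and 5 for the CTRL diet effect of WAT against liver and heart. With limma on log2(TPM + 1) it was 5 for CTRL diet in liver, 10 for CTRL diet in WAT, and 1, 2 and 19 for the diet effect of WAT against liver, heart and muscle. With the length trend removed it was 1 for CTRL diet in liver and 1, 5 and 2 in WAT for labelled KO against CTRL on chow, CTRL diet and labelled KO diet. With the GC trend removed, chosen after seeing the data, it was 1 for labelled KO against CTRL on chow and 2 for labelled KO diet in WAT. Without the low-count filter it was 1 for labelled KO against CTRL on chow in WAT. With the length-tilted libraries left out it was 0 for both CTRL chow comparisons in WAT and 2 for WAT against muscle. With only the 8 libraries compared it was 1, 7 and 1 in WAT for labelled KO against CTRL on chow, CTRL diet and labelled KO diet.

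Leaving out 1 library at a time, the count ran from 1 to 6 for labelled KO against CTRL on chow and from 0 to 30 for CTRL diet in WAT, and from 0 to 8, 0 to 3 and 19 to 34 for the diet effect of WAT against liver, heart and muscle. On log2(TPM + 1) the heart against muscle difference reversed to -0.11 for Atp5c1, -0.037 for Atp5j2, -0.0045 for Atp5o, -0.10 for Cox6b1, -0.016 for Cox7b, -0.028 for Uqcrfs1 and -0.027 for Uqcrh. Among the isoform-family members, the WAT against liver difference reversed to 0.91 for Atp5g2, 0.29 for Atp5g3, 1.12 for Cox4i1, 0.94 for Cox6a1, 0.94 for Cox6b1, 0.39 for Cox7a2 and 0.58 for Cox7a2l, on a scale whose median of all genes moved from 0.12 to 1.003. The causes were not tested.

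Title numbers are shared between tissues, and the labels tie them to no mouse. Same-numbered libraries had median correlations of 0.07 to 0.21, against -0.08 to -0.02 for other numbers of the same group. They correlated best with their own number in 10 to 12 of 16, where the choice was among the 4 libraries of a group. In each pair of tissues the lowest was under 0.1 (-0.13 to 0.02), and the main fits did not take the numbers as pairs. The best-match counts and medians hint at a shared source, and the main tests between tissues would then ignore a pairing. With the title number as a replicate block the count was 6, 2 and 35 for the CTRL diet effect of WAT against liver, heart and muscle. Depth limits Cox4i2, Cox6b2 and the liver levels of Cox6a2, Cox7a1 and Cox8b, which rest on few reads.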
